A study of Mus musculus with 6 samples.

Results

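The 7 genes Fn1, Postn, Tnc, Sparc, Thbs1, Thbs2 and Vcan encode secreted proteins of the interstitial matrix and were followed through the cell types of obstructed mouse kidneys. They were chosen by symbol from the 31276 genes of the deposited matrices, and all 7 were present in every library. SH045 (n = 3 libraries) was compared with Vehicle (n = 3 libraries) in C57BL/6 animals, all of which had 1 ureter ligated, and the obstructed kidney was taken 7 days after surgery. Ligation of a ureter dams urine in the kidney and is widely used to provoke fibrosis. The series title connects SH045 to blocking of TRPC6, a channel that lets calcium and other cations into cells. Dose, route, age and sex are not given in the sources used here, nor whether each library is 1 mouse, and the contralateral control kidneys and spatial samples were not analysed here.

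Fibronectin, the product of Fn1, is laid down early in wounds, where cells assemble it into fibrils through integrins and where it serves as a scaffold for collagen. Matricellular proteins are secreted into the matrix mainly to alter how cells attach to it and how they receive signals, and most are scarce in healthy adult tissue and abundant in repair. Periostin (Postn) and tenascin-C (Tnc) are classical examples induced in fibrosing organs, and SPARC binds collagen and calcium. Thrombospondin 1 (Thbs1) can activate latent TGF-beta, thrombospondin 2 (Thbs2) is its relative from connective tissue, and versican (Vcan) is a large proteoglycan that binds hyaluronan. Fibroblasts and pericytes are regarded as the main makers of such matrix in kidney fibrosis, and macrophages are known to make fibronectin.

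In GENCODE M21 coordinates of mouse build mm10, Fn1 (ENSMUSG00000026193) spans chr1:71585520-71653200 on the minus strand and Postn (ENSMUSG00000027750) chr3:54361109-54391037 on the plus strand. Tnc (ENSMUSG00000028364) spans chr4:63959785-64047015 and Sparc (ENSMUSG00000018593) chr11:55394500-55423183, both on the minus strand. Thbs1 (ENSMUSG00000040152) spans chr2:118111876-118127133 on the plus strand, Thbs2 (ENSMUSG00000023885) chr17:14665500-14694235 on the minus strand and Vcan (ENSMUSG00000021614) chr13:89655312-89742509 on the minus strand. A UMI (unique molecular identifier) tags 1 RNA molecule, and UMIs were counted per gene, with exons and isoforms combined.

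RefSeq promoters of build GRCm38.p6, running from 250 bases before a start site to 50 after it, were held for 5 of the 7 members. For Postn, Tnc, Thbs2 and Vcan, the start site nearest to the GENCODE gene lay within 27 bases of the 5′ end of the GENCODE gene, and these promoters are shown because all 4 genes were higher with SH045 in whole-library sums and highest in fibroblasts. They are chr3:54360857-54361156 (plus strand) for Postn, chr4:64046966-64047265 (minus strand) for Tnc, chr17:14694213-14694512 (minus strand) for Thbs2 and chr13:89742463-89742762 (minus strand) for Vcan, written 5′ to 3′ on the strand of the gene. The start listed for Sparc lay 3103 bases from the GENCODE 5′ end, and that promoter is not shown, nor are those of a further start of Postn (1842 bases away) and of Tnc (79 bases away). Capitals mark matches on either strand to TATAAA (the TATA box core), CCAAT (the CCAAT box), GGGCGG (a GC box), TGANTCA (an AP-1 site) or GGAATG (a TEAD site), and matches on the other strand appear as reverse complements.
Postn: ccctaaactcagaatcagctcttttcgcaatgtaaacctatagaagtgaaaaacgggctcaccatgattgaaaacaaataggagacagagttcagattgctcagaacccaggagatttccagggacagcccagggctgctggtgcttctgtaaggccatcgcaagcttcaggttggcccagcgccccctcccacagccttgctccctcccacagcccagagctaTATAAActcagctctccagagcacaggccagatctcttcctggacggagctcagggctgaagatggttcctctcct
Tnc: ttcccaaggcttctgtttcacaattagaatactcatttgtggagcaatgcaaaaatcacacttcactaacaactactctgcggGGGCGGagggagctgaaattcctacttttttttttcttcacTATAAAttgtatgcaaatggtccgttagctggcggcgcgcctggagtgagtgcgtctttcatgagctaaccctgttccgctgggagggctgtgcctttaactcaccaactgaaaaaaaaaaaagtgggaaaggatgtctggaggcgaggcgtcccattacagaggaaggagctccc
Thbs2: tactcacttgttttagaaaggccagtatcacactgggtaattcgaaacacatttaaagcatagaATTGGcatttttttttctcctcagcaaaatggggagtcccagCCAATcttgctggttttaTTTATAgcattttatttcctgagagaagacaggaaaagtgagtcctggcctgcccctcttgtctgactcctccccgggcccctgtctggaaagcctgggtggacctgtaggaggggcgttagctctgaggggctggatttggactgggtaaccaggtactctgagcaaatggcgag
Vcan: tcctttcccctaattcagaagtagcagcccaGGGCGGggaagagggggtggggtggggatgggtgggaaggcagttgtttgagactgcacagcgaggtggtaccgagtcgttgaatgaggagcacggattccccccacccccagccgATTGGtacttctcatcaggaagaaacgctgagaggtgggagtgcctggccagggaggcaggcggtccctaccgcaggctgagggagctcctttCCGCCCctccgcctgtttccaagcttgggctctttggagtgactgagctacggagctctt
Postn, Tnc and Thbs2 each held 1 match to TATAAA and Vcan held none, against 13.6% of all 32851 RefSeq promoters with a match. Vcan held 2 matches to GGGCGG and Tnc held 1, where 35.7% of all promoters had a match. CCAAT occurred 2 times for Thbs2 and 1 time for Vcan (37.4% of all promoters), and neither TGANTCA (7.81%) nor GGAATG (14.7%) was found in the 4 windows. The marked matches did not overlap one another, and they describe letters only.

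The 6 libraries held 25978 barcodes and between 21186872 and 32256602 UMIs each. Barcodes with at least 200 genes and at most 50% mitochondrially encoded UMIs were kept, which left 23578 cells; the share left out was 10.49 to 16.6% in SH045 libraries and 3.61 to 9.06% in Vehicle libraries. A cell was assigned to a class when at least 3 of the 8 markers on that class's list were detected and no other class had as many, and 92.8% of cells were assigned. None of the 7 members was a marker. Macrophages numbered 1107, 1476 and 1878 cells in SH045 libraries 1, 2 and 3, against 1988, 1781 and 2281 in Vehicle libraries 1, 2 and 3. Fibroblasts numbered 130, 163 and 90 in SH045 libraries, against 22, 31 and 31 in Vehicle libraries, and tubule cells 1277, 1671 and 969, against 1235, 1629 and 913. Of the markers kept out of the gates, Tyrobp averaged 2796 ± 395 CPM (a gene's UMIs scaled to a fixed total of 1e+06 UMIs in the class) in macrophages and 33.3 ± 34.2 CPM in fibroblasts (SD, n = 6 libraries), and Spint2 averaged 829 ± 134 CPM in tubule cells. Pcolce, held out for fibroblasts, was also seen in tubule cells, at 214 ± 46.4 CPM. Serpinf1, also held out for fibroblasts, ran from 36.8 to 996 CPM in fibroblasts and from 24.0 to 51.7 CPM in macrophages, which overlapped. Of all barcode sequences, 209 occurred in more than 1 library. Values are given below in the order of libraries 1, 2 and 3 of each group, and n is the number of libraries.

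Fibroblasts had the highest mean level of each of the 7 members among 12 classes with at least 20 cells in every library. The class that came next differed between the genes. Pericytes or smooth muscle cells, with 2 to 13 cells per library, were too few to be ranked. For Fn1, fibroblasts averaged 1061 ± 213 CPM (SD, n = 6 libraries), macrophages 351 ± 180 CPM and monocytes or granulocytes 325 ± 160 CPM, and the ranges of the last 2 classes overlapped. Endothelial cells followed at 90.8 ± 32.8 CPM and injured tubule cells at 56.6 ± 17.2 CPM. In principal cells of the collecting duct, which regulate salt and water, Fn1 was at 6.33 ± 3.3 CPM.

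Postn and Tnc were low outside fibroblasts in the ranked classes. Postn averaged 304 ± 303 CPM in fibroblasts, with library values between 55.2 and 852 CPM, and 5.44 ± 8.35 CPM in endothelial cells. Tnc averaged 675 ± 245 CPM in fibroblasts and 16.5 ± 13.2 CPM in injured tubule cells, which lay above the 6.98 ± 13.1 CPM of endothelial cells with overlapping ranges. Neither gene had a UMI in dendritic cells or in monocytes or granulocytes. In the few pericytes or smooth muscle cells, Postn had 181, 343 and 98.3 CPM in SH045 libraries (11, 26 and 3 UMIs), against 0, 171 and 0 CPM in Vehicle libraries (0, 7 and 0 UMIs). Tnc had 345, 13.2 and 0 CPM there in SH045 libraries, against 0, 220.5 and 31.4 CPM in Vehicle libraries. Both genes overlapped between the groups in these cells.

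Sparc and Thbs2 were shared with the endothelium. Sparc averaged 10912 ± 3566 CPM in fibroblasts and 6134 ± 787 CPM in endothelial cells, and fibroblasts were higher in 5 of 6 libraries. Among the ranked classes, injured tubule cells followed at 314 ± 77.3 CPM. Proximal tubule cells, which reabsorb most of the filtrate, had 304 ± 99.4 CPM, and these 2 ranges overlapped. The few pericytes or smooth muscle cells, which were not ranked, had 3383, 5013 and 4323 CPM of Sparc in SH045 libraries. In Vehicle libraries they had 4434, 5316 and 1287 CPM, above both tubule classes in every library. Thbs2 averaged 194 ± 80.4 CPM in fibroblasts and 93.0 ± 47.5 CPM in endothelial cells, again higher in fibroblasts in 5 of 6 libraries. Every other ranked class had a Thbs2 mean of at most 3.43 CPM, the value of monocytes or granulocytes.

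Thbs1 was also found along the distal nephron and Vcan in monocytes or granulocytes. Thbs1 averaged 548 ± 95.5 CPM in fibroblasts, 131 ± 30.5 CPM in principal cells and 107 ± 43.7 CPM in distal convoluted tubule cells, and the last 2 ranges overlapped. Monocytes or granulocytes had 448 CPM of Thbs1 in SH045 library 1 and at most 79.95 CPM in any other library. Vcan averaged 603 ± 119 CPM in fibroblasts and 121 ± 84.8 CPM in monocytes or granulocytes, whose highest library (231 CPM) lay below the lowest fibroblast value (457 CPM). Macrophages followed at 4.25 ± 4.36 CPM. The map of mean levels by class shows these patterns side by side.

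**Figure D1:**
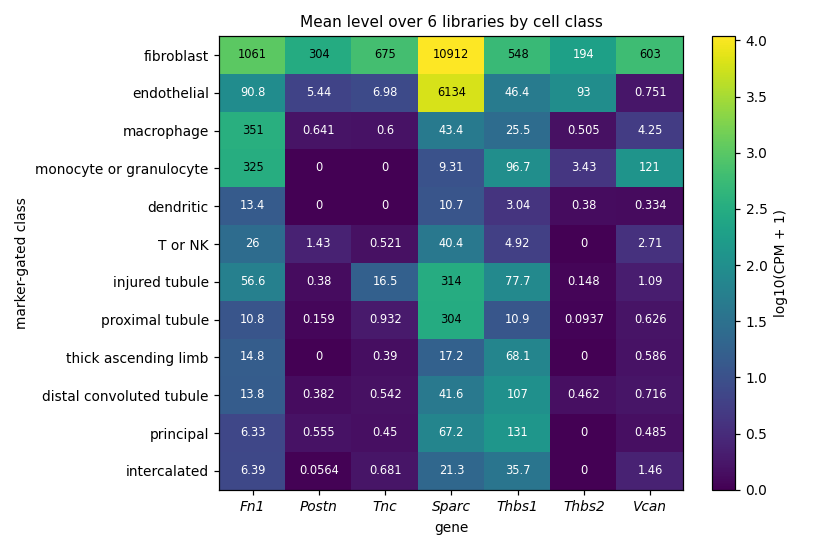
Mean level of each gene (columns) in each marker-gated class (rows), over 6 libraries; the number in a cell is the mean in CPM and the colour is log10(CPM + 1). The fibroblast row holds the highest value of every column, Sparc and Thbs2 are next highest in endothelial cells, Fn1 in macrophages, Thbs1 in principal cells and Vcan in monocytes or granulocytes.

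Classes of the same library were compared with edgeR's quasi-likelihood test, with the library as a block and Benjamini-Hochberg adjustment over all genes tested. Here and below, the standard error (SE) of a log2 difference was derived from the test. It is the difference's size divided by the square root of the F statistic. Against macrophages, fibroblasts were higher for 6 of 7 members, where 56.8% of all 10939 genes tested were called and 24.8% were called higher. The log2 differences ran from 4.41 ± 0.45 (SE) for Thbs1 to 9.59 ± 0.30 for Tnc, with adjusted p of 0.000162 and 7.49e-15 by edgeR. Fn1 was the exception, with a log2 difference of 1.32 ± 0.49 and an adjusted p of 0.0646 by edgeR. Its call depended on the setting: DESeq2 gave 0.00114, no low-count filter gave 4.29e-12, leaving out SH045 library 3 gave 0.0229 and leaving out Vehicle library 3 gave 0.0476.

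Against tubule cells, fibroblasts were higher for 7 of 7 members, where 55.1% of all 12588 genes were called and 21.5% were called higher. The smallest log2 difference was that of Thbs1, at 3.12 ± 0.16 (adjusted p = 5.58e-14 by edgeR), and the largest that of Thbs2, at 10.23 ± 0.30 (adjusted p = 7.34e-23). Between macrophages and tubule cells the members divided. Of 5 members with enough counts, macrophages were higher for Fn1 (log2 difference 4.60 ± 0.43, adjusted p = 5.70e-05 by edgeR) and for Vcan (2.50 ± 0.37, adjusted p = 4.83e-05). They were lower for Tnc (-1.82 ± 0.45, adjusted p = 0.00277), Sparc (-1.59 ± 0.27, adjusted p = 0.000971) and Thbs1 (-1.12 ± 0.31, adjusted p = 0.0110, and 0.0531 without Vehicle library 1). Of all 13854 genes tested in this pair, 81.5% were called, 39.9% higher and 41.6% lower in macrophages.

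The share of single cells with a Fn1 UMI was likewise higher in fibroblasts than in macrophages. These shares rest on the same UMIs, with cells pooled over all libraries of both groups, and 383 of the 467 fibroblasts came from SH045 libraries. After each cell was thinned to 2000 UMIs, 73.7% of 467 fibroblasts had a Fn1 UMI (exact 95% binomial interval 69.4 to 77.6%), and 11.2% of 10511 macrophages did (10.55 to 11.8%). Without thinning the shares were 91.2% and 13.5%. The share in T or NK cells, lymphocytes that should lack fibronectin, was 1.56% thinned and 3.22% unthinned, and in tubule cells 2.57% thinned and 7.11% unthinned. Median depths were 5825 UMIs in fibroblasts, 3607 in macrophages, 3451 in T or NK cells and 6383 in tubule cells. The intervals cover counting error only. The 2000-UMI share of fibroblasts with a UMI was 100% for Sparc in every library, and averaged 51.6 ± 6.68% for Vcan, 47.0 ± 14.1% for Tnc, 39.2 ± 10.51% for Thbs1, 19.98 ± 14.2% for Postn and 19.2 ± 10.54% for Thbs2 (SD, n = 6). Between 96.8 and 100% of the fibroblasts of a library had UMIs of 2 or more members.

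In whole-library sums, 6 of the 7 members rose with SH045, and Fn1 was lower without passing the test. Of all 16532 genes tested, 4.31% were called and 2.95% were called higher. The 7 members had a median log2 difference of 1.81, and all genes one of 0.01. The groups did not overlap for any of the 7 genes, and the share of all genes without overlap is not given here.

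Fn1 stood at 141, 154 and 83.9 CPM in SH045 libraries, against 187, 209 and 277 CPM in Vehicle libraries. Every SH045 value lay below every Vehicle value, with a log2 difference of -1.07 ± 0.24 (SE, n = 3 each) and an adjusted p of 0.0511 by edgeR. The call changed with small changes of method: the adjusted p was 0.000613 with DESeq2, 0.0479 with DESeq2's size factors, 0.0317 without the low-count filter, 0.0250 with the trend on transcript length removed, 0.0488 with a mitochondrial limit of 20% and 0.0453 with likely doublets removed. It lay between 0.0516 and 0.158 with any 1 library left out.

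Postn had 26.6, 40.9 and 8.03 CPM in SH045 libraries, against 0.611, 0.611 and 1.602 CPM in Vehicle libraries. The lowest SH045 library exceeded the highest Vehicle library, although the SH045 libraries differed widely among themselves. The log2 difference was 4.49 ± 0.72, or 22.5-fold, with an adjusted p of 0.0277 by edgeR. The call ended without the low-count filter (adjusted p = 0.0977), without SH045 library 1 (0.0895) and without Vehicle library 1 (0.107), 2 (0.101) or 3 (0.0651). With replicate number as a block it ended too, as given in the closing section.

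Tnc had 40.6, 22.1 and 24.1 CPM in SH045 libraries, against 4.79, 11.6 and 6.75 CPM in Vehicle libraries. SH045 library 1 was the highest and the groups stayed apart, with a log2 difference of 1.65 ± 0.33 and an adjusted p of 0.0412 by edgeR. The adjusted p was 0.132, 0.0749 or 0.0720 without SH045 library 1, 2 or 3 and 0.0956 or 0.101 without Vehicle library 1 or 3, so the call held when Vehicle library 2 was left out (0.0259) and in no other omission. It also ended without the low-count filter (0.115), with the length trend removed (0.0662) and with replicate number as a block (given in the closing section).

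Sparc reached 1047, 948 and 582 CPM in SH045 libraries, against 186, 231 and 206 CPM in Vehicle libraries. SH045 library 3 was the lowest of its group and still above every Vehicle library. The log2 difference was 1.81 ± 0.22, or 3.50-fold, with an adjusted p of 0.00856 by edgeR, and it stayed called with each library left out (0.00160 to 0.0412).

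Thbs1 had 106, 58.6 and 60.7 CPM in SH045 libraries, against 21.9, 30.6 and 31.6 CPM in Vehicle libraries. SH045 library 1 stood highest, and the log2 difference was 1.17 ± 0.23 with an adjusted p of 0.0345 by edgeR. The adjusted p rose to 0.0740 without SH045 library 1, to 0.105, 0.0763 or 0.0731 without Vehicle library 1, 2 or 3, and to 0.0548 with the length trend removed. With replicate number as a block the call ended as well (given in the closing section).

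Thbs2 had 18.6, 14.6 and 7.77 CPM in SH045 libraries, against 1.43, 3.15 and 2.17 CPM in Vehicle libraries. The groups were separate, with a log2 difference of 2.34 ± 0.37 and an adjusted p of 0.0193 by edgeR, which became 0.0779 or 0.0550 without SH045 library 1 or 2 and 0.0628 or 0.0639 without Vehicle library 1 or 3. Vcan had 44.6, 22.2 and 28.7 CPM in SH045 libraries, against 6.01, 5.31 and 7.82 CPM in Vehicle libraries. Its log2 difference was 2.07 ± 0.26, or 4.19-fold (adjusted p = 0.00881 by edgeR), and it stayed called with each library left out (0.0116 to 0.0414). The plot of whole-library levels shows the separation of the groups for all 7 genes.

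**Figure D2:**
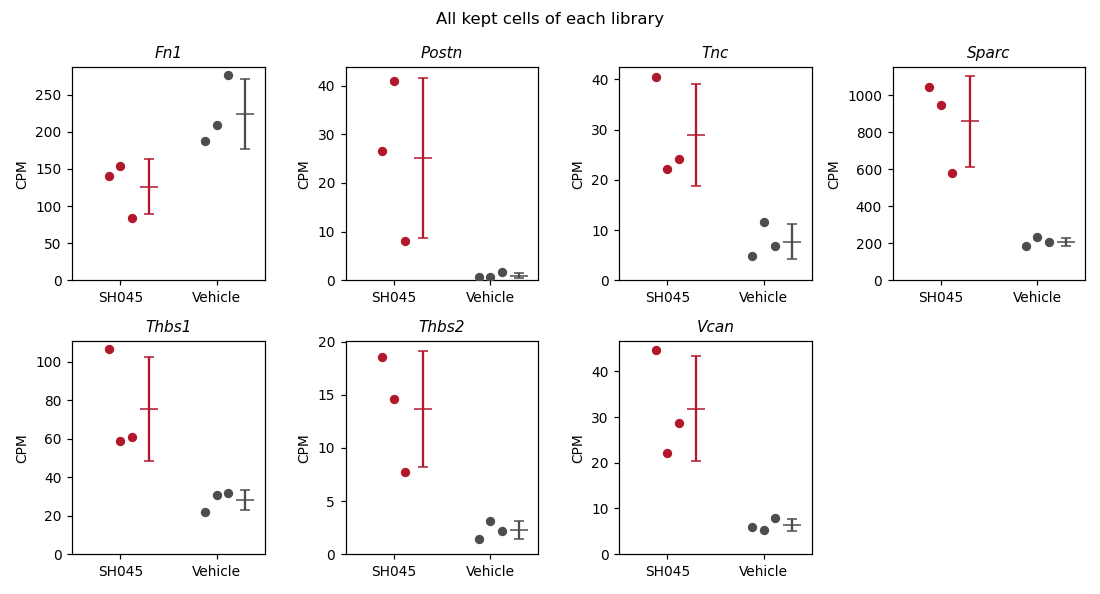
Level of each gene in CPM (vertical axis, from 0) over all kept cells of each library, for SH045 and Vehicle; points are libraries and the bar beside them is the mean ± SD (n = 3). The SH045 points lie above all Vehicle points for Postn, Tnc, Sparc, Thbs1, Thbs2 and Vcan, and below them for Fn1.

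The recovered cells differed between the groups. Fibroblasts made up 3.46 ± 0.86% of cells with SH045 and 0.669 ± 0.12% with Vehicle (SD, n = 3 each), and endothelial cells 2.96 ± 0.56% with SH045 and 0.843 ± 0.15% with Vehicle. Principal cells made up between 3.26 and 7.08% with SH045 and between 1.91 and 2.98% with Vehicle. None of these 3 classes overlapped between the groups. The few pericytes or smooth muscle cells did not either, at 0.193 to 0.380% with SH045 and 0.0483 to 0.169% with Vehicle. Dendritic cells were lower with SH045 without overlap (2.84 to 3.84%, against 4.10 to 5.94% with Vehicle). So were cells without an assigned class (5.04 to 6.23%, against 6.68 to 11.1% with Vehicle). A smaller share of cells of a type and less RNA per cell cannot be told apart in whole-library sums.

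When the gated fibroblasts were left out of the sums, each of the 7 members had an adjusted p above 0.05 by edgeR, and 55 genes of the whole transcriptome were called. This alternative was added after the data were seen. The log2 difference was then 0.50 for Tnc (adjusted p = 0.616), 0.68 for Sparc (0.0794), 0.90 for Thbs1 (0.139), 0.89 for Thbs2 (0.242), 1.32 for Vcan (0.238) and 3.93 for Postn (0.0555). Postn had 61, 72 and 21 UMIs outside fibroblasts in SH045 libraries, against 0, 7 and 4 in Vehicle libraries. Of these, cells without an assigned class held 42, 12 and 7 in SH045 libraries, against 0, 0 and 0 in Vehicle libraries. The 42 UMIs of SH045 library 1 lay in 0.939% of 213 such cells. Pericytes or smooth muscle cells held 11, 26 and 3 in SH045 libraries, against 0, 7 and 0 in Vehicle libraries. For Fn1 the log2 difference without gated fibroblasts was -1.67 (adjusted p = 0.0509 by edgeR). When the gated macrophages were left out instead, the Fn1 difference was 0.35 with the opposite sign (adjusted p = 0.185), while the other 6 members remained called higher.

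The cells that held Fn1 differed between the groups. Fibroblasts held 38.1, 38.4 and 42.2% of all Fn1 UMIs in SH045 libraries, against 2.67, 4.33 and 2.79% in Vehicle libraries. Macrophages held 35.6, 51.5 and 41.5% in SH045 libraries, against 76.1, 79.8 and 86.1% in Vehicle libraries, and neither class overlapped between groups. For Sparc, fibroblasts held 70.2, 76.4 and 55.8% of the UMIs in SH045 libraries, against 32.7, 26.5 and 30.1% in Vehicle libraries. Tubule cells held 8.93, 8.27 and 9.97% of Sparc in SH045 libraries, against 24.5, 44.4 and 33.5% in Vehicle libraries.

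Tubule cells held more of Thbs1 than fibroblasts did in every library, with 41.4, 51.4 and 42.0% of its UMIs in SH045 libraries, against 58.0, 67.9 and 70.0% in Vehicle libraries. Endothelial cells held 11.5, 9.52 and 21.6% of Thbs2 in SH045 libraries, against 39.3, 52.0 and 21.1% in Vehicle libraries, which overlapped. Fibroblasts held most of Postn, Tnc and Vcan in every library of both groups, from 55.1% (Vcan in Vehicle library 1) to 100% (Postn in Vehicle library 1, which had 12 Postn UMIs in all). These shares carry no test.

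**Figure D3:**
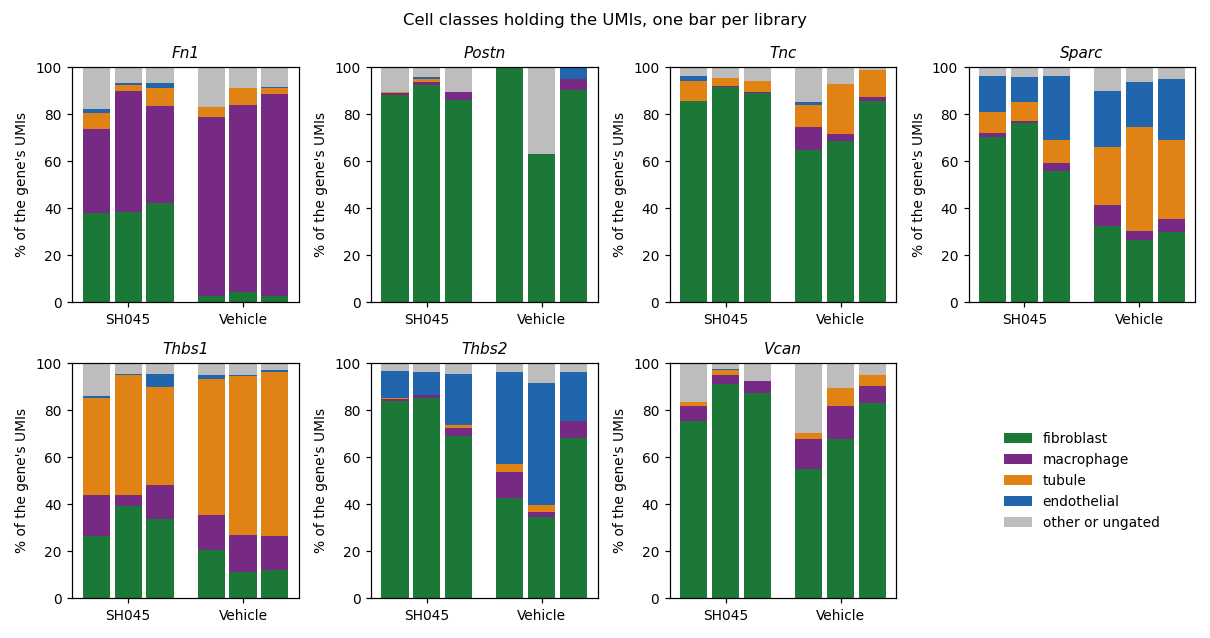
Share of each gene's UMIs held by marker-gated classes, in percent of the gene's UMIs in a library (vertical axis), with 1 stacked bar per library, SH045 libraries 1 to 3 and then Vehicle libraries 1 to 3. Fibroblasts hold 38.1 to 42.2% of Fn1 in SH045 bars and 2.67 to 4.33% in Vehicle bars, and macrophages hold most of Fn1 in the Vehicle bars.

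Within fibroblasts, 7 members were tested and 0 were called by edgeR at the 0.05 limit, where 0.125% of all 6412 genes were called. At an unadjusted p under 0.05 there were 3, namely Postn (0.0220), Sparc (0.00607) and Thbs2 (0.0184), and DESeq2 called 1. Here and below, the share of all genes under that unadjusted limit is not given. The number of all genes that DESeq2 called in fibroblasts is given in the closing section. The members had a median log2 difference of 0.23, and all genes one of 0.005. The Vehicle values rest on 22 to 31 fibroblasts per library.

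Postn stood at 455, 852 and 195 CPM in SH045 fibroblasts, against 97.9, 55.2 and 169 CPM in Vehicle fibroblasts. The groups did not overlap, yet the log2 difference of 2.30 ± 0.73 had an adjusted p of 0.488 by edgeR. DESeq2 called it (adjusted p = 0.00143), and so did edgeR without SH045 library 3 (0.0141). Sparc had 14259, 16352 and 9154 CPM in SH045 fibroblasts, against 9726, 8772 and 7209 CPM in Vehicle fibroblasts. SH045 library 3 overlapped with the Vehicle range, and the log2 difference was 0.71 ± 0.22 (adjusted p = 0.376 by edgeR, 0.0155 without SH045 library 3 and 9.80e-05 without the low-count filter).

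Thbs2 had 302, 282 and 150.8 CPM in SH045 fibroblasts, against 97.9, 156 and 173 CPM in Vehicle fibroblasts, overlapping at SH045 library 3. Its log2 difference was 0.82 ± 0.30 (adjusted p = 0.488 by edgeR, 0.0496 without SH045 library 3 and 0.0462 without the low-count filter). Fn1 had 1041, 1334 and 996 CPM in SH045 fibroblasts, against 799.6, 1293 and 901 CPM in Vehicle fibroblasts. These ranges overlapped, as did those of Tnc, Thbs1 and Vcan.

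The log2 differences were 0.23 ± 0.22 for Fn1, -0.37 ± 0.27 for Tnc, 0.08 ± 0.20 for Thbs1 and 0.07 ± 0.21 for Vcan, with adjusted p between 0.725 and 0.955 by edgeR. Markers of endothelial cells in the fibroblast gate summed to 133 to 164 CPM in SH045 libraries and 257 to 383 CPM in Vehicle libraries, without overlap. Their part in these values was not tested.

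Within macrophages, 4 members had enough counts (Postn had 21 UMIs in SH045 and 2 in Vehicle macrophages, Tnc 5 and 23, and Thbs2 12 and 9) and 0 were called by edgeR, where 11.4% of all 12308 genes were called. At an unadjusted p under 0.05 only Vcan (0.0161) was below the limit, and Fn1 was at 0.0528. DESeq2 gave an adjusted p for 3 of the 4 and called 0, and its value for Fn1 was 0.0548.

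Fn1 had 232, 312 and 88.3 CPM in SH045 macrophages, against 382, 546 and 546 CPM in Vehicle macrophages. Every SH045 value lay below every Vehicle value, with SH045 library 3 lowest, and the log2 difference was -1.39 ± 0.53 (adjusted p = 0.180 by edgeR). Without SH045 library 3 it was -1.02 and called (adjusted p = 0.0264). The share of macrophages with a Fn1 UMI at 2000 UMIs per cell was 7.05, 8.47 and 3.46% in SH045 libraries, against 11.97, 18.8 and 14.5% in Vehicle libraries, again without overlap. The share in T or NK cells was 1.48, 0.667 and 0% in SH045 libraries, against 1.61, 4.12 and 2.82% in Vehicle libraries, also without overlap and in the same direction. In SH045 library 3, 0 of 205 T or NK cells had a thinned Fn1 UMI, a count that allows up to 3 such cells. Median depths were 3222.5 UMIs in SH045 and 3985.5 in Vehicle T or NK cells, and 3362 in SH045 and 3792.5 in Vehicle macrophages. What part free RNA had in the macrophage shares was not tested. Macrophages with a Fn1 UMI carried on average 4.37, 4.24 and 2.52 Fn1 UMIs after thinning in SH045 libraries, against 3.63, 3.71 and 4.03 in Vehicle libraries, which overlapped. The 8 dendritic markers in the macrophage gate summed to 119, 168 and 126 CPM in SH045 libraries, against 361, 220.04 and 313 CPM in Vehicle libraries, without overlap, and their part in the Fn1 values was not tested. Before thinning, all 3465 Fn1 UMIs of SH045 macrophages lay in 329 of 4461 cells, and the 14234 of Vehicle macrophages in 1093 of 6050.

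Macrophages were divided by markers of infiltrating cells (such as Ccr2, the receptor that draws monocytes into tissue) and of resident cells (such as Mrc1, a mannose receptor). Infiltrating macrophages had Fn1 at 759.6, 705 and 779.8 CPM in SH045 libraries, against 457, 725 and 662 CPM in Vehicle libraries. These values overlapped, with a log2 difference of 0.18 ± 0.18 (adjusted p = 0.722 by edgeR). Resident macrophages had 142, 78.1 and 29.8 CPM of Fn1 in SH045 libraries, against 137, 283 and 360.3 CPM in Vehicle libraries. SH045 library 1 overlapped with Vehicle library 1, and the log2 difference was -1.85 ± 0.71 (adjusted p = 0.226 by edgeR). Their share with a Fn1 UMI at 2000 UMIs was 3.39, 2.82 and 2.25% in SH045 libraries, against 5.77, 9.32 and 7.62% in Vehicle libraries, without overlap. Of all genes, 5.12% were called in resident macrophages and 3.81% in the remaining ones.

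Cells with no excess of either marker set had 186, 495 and 90.6 CPM of Fn1 in SH045 libraries, against 534, 748 and 677 CPM in Vehicle libraries, without overlap (log2 difference -1.47 ± 0.72, adjusted p = 0.319 by edgeR, and -2.47 with 0.000339 without SH045 library 2). These cells held 9.38, 36.3 and 14.3% of all Fn1 UMIs in SH045 libraries, against 58.5, 53.2 and 52.5% in Vehicle libraries. This subset made up 14.6 ± 3.28% of cells with SH045 and 23.3 ± 3.71% with Vehicle (SD, n = 3 each), also without overlap, and infiltrating macrophages 2.57 ± 0.82% with SH045 and 3.99 ± 0.96% with Vehicle, which overlapped. Whether the SH045 effect differs between the subsets was not tested.

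**Figure D4:**
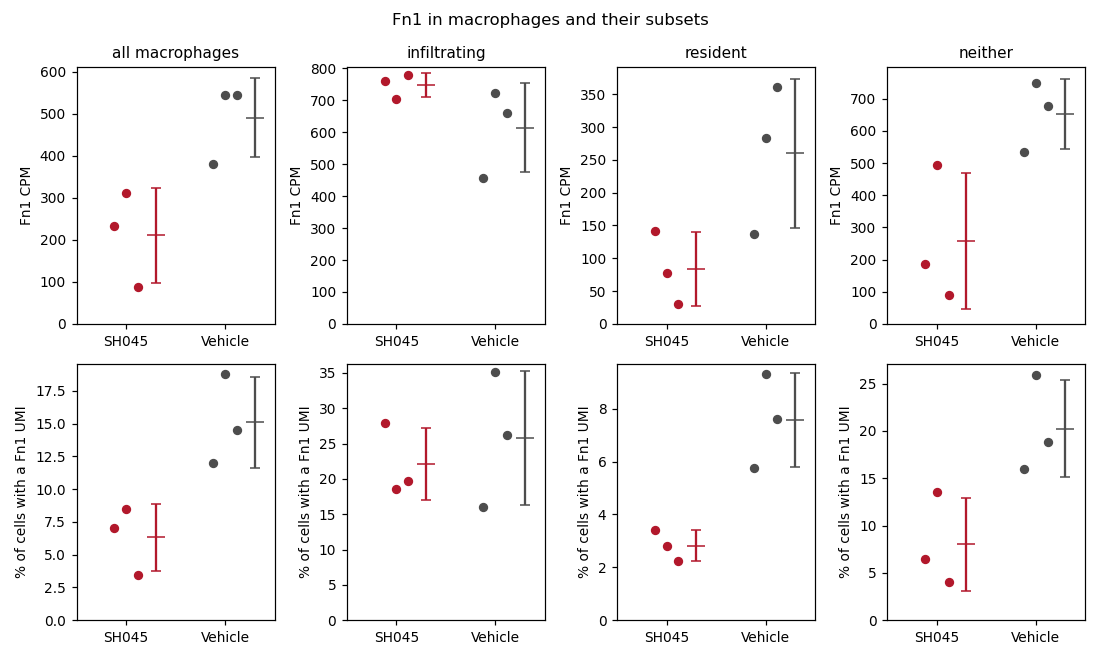
Fn1 in all macrophages and in the infiltrating, resident and remaining (neither) subsets, for SH045 and Vehicle: CPM in the top row, and the percent of cells with a Fn1 UMI after thinning to 2000 UMIs in the bottom row. Points are libraries and the bar beside them is the mean ± SD (n = 3); the SH045 points lie below all Vehicle points in both rows for all macrophages and for the neither subset, and overlap with them in both rows for the infiltrating subset.

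The test of the difference between classes was run for Fn1 itself. The SH045 effect in macrophages minus that in fibroblasts was -1.98 ± 0.35 on the log2 scale, with an adjusted p of 0.0593 by edgeR, which did not pass. Of all 12456 genes, 0.442% were called in this test. It passed without SH045 library 1 (-2.06, adjusted p = 8.22e-16), 2 (-2.26, 1.32e-16) or 3 (-1.58, 6.76e-08), and over all 6 omissions the adjusted p reached 0.369, with a Vehicle library left out. In the SH045 omissions the adjusted p moved far more than the log2 difference did. The reason was not tested, so these small values do not replace the result from all 6 libraries. Against tubule cells the macrophage effect on Fn1 differed by -0.69 ± 0.84 (adjusted p = 0.865 by edgeR; 0.0335% of 14913 genes called). For Sparc the effect in fibroblasts minus that in tubule cells was 0.98 ± 0.30 (adjusted p = 0.484 by edgeR; 0.181% of 13789 genes called), and it passed without SH045 library 1 (1.10, 4.19e-05), 2 (0.76, 0.0158) or 3 (1.16, 3.39e-06), but not without Vehicle library 1 (1.36, 0.0743), 2 (0.84, 0.878) or 3 (0.77, 0.630).

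Vcan and Thbs1 stood highest in SH045 library 1 among macrophages. Vcan had 55, 19 and 26 UMIs in SH045 macrophages, or 13.0, 3.26 and 3.46 CPM, against 15, 23 and 15 UMIs in Vehicle macrophages, or 2.05, 2.42 and 1.31 CPM. The groups did not overlap, with a log2 difference of 1.51 ± 0.52 (adjusted p = 0.0890 by edgeR). It was called without the low-count filter (0.00113) and without SH045 library 2 (0.0464), and it fell to a log2 difference of 0.68 without SH045 library 1 (0.365).

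Thbs1 had 84.6, 10.8 and 22.4 CPM in SH045 macrophages, against 8.87, 15.8 and 10.5 CPM in Vehicle macrophages, which overlapped (log2 difference 1.47 ± 0.85, adjusted p = 0.345 by edgeR). Sparc had 86.2, 27.6 and 48.2 CPM in SH045 macrophages, against 44.1, 28.0 and 26.3 CPM in Vehicle macrophages, which also overlapped (0.51 ± 0.46, adjusted p = 0.540 by edgeR). The 8 monocyte or granulocyte markers in the macrophage gate summed to 560.4, 199 and 178 CPM in SH045 libraries, against 185, 157 and 187 CPM in Vehicle libraries. The 8 fibroblast markers summed there to 211, 53.9 and 83.8 CPM in SH045 libraries, against 61.8, 15.7 and 13.6 CPM in Vehicle libraries. The 8 endothelial markers summed there to 59.3, 27.1 and 25.7 CPM in SH045 libraries, against 15.6, 18.3 and 20.7 CPM in Vehicle libraries, without overlap. The part of these cell types in the Vcan, Thbs1 and Sparc values was not tested.

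Vcan was the 1 member called in a macrophage subset. In infiltrating macrophages it had 29, 9 and 13 UMIs in SH045 libraries (56.1, 19.9 and 34.1 CPM), against 0, 2 and 4 UMIs in Vehicle libraries (0, 2.53 and 3.52 CPM). The groups did not overlap, and the log2 difference was 3.78 ± 0.60 (adjusted p = 0.00513 by edgeR), where 0.185% of all 5950 genes were called. The call ended without SH045 library 1 (adjusted p = 0.340). Thbs1 in the same cells had 336, 19.9 and 113 CPM in SH045 libraries, against 17.8, 12.7 and 13.2 CPM in Vehicle libraries, without overlap and without a call (log2 difference 3.34 ± 1.13, adjusted p = 0.379 by edgeR, 0.00848 without SH045 library 2).

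Within tubule cells, 4 members had enough counts and 0 were called by edgeR, where 0.00714% of all 14000 genes, which is 1 gene, were called. At an unadjusted p under 0.05 there was 1 member, Fn1 (0.0445), and DESeq2 called 0 of the 4 members, with 333 genes called in all. Thbs1 had 88.3, 54.2 and 63.2 CPM in SH045 tubule cells, against 31.6, 41.0 and 68.3 CPM in Vehicle tubule cells. The groups overlapped at Vehicle library 3, with a log2 difference of 0.44 ± 0.26 (adjusted p = 0.368 by edgeR).

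Fn1 had 19.4, 6.74 and 16.2 CPM in SH045 tubule cells, against 19.9, 28.5 and 20.1 CPM in Vehicle tubule cells. The groups did not overlap, though SH045 library 1 and Vehicle library 1 were close, and the log2 difference was -0.85 ± 0.35 (adjusted p = 0.245 by edgeR). The 8 macrophage markers in the tubule gate summed to 107, 92.4 and 126 CPM in SH045 libraries, against 199, 136 and 222 CPM in Vehicle libraries, without overlap, and their part in the Fn1 values was not tested. Sparc differed by -0.27 ± 0.21 (adjusted p = 0.490) and Tnc by 0.14 ± 0.65 (adjusted p = 0.922) on the log2 scale by edgeR.

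**Figure D5:**
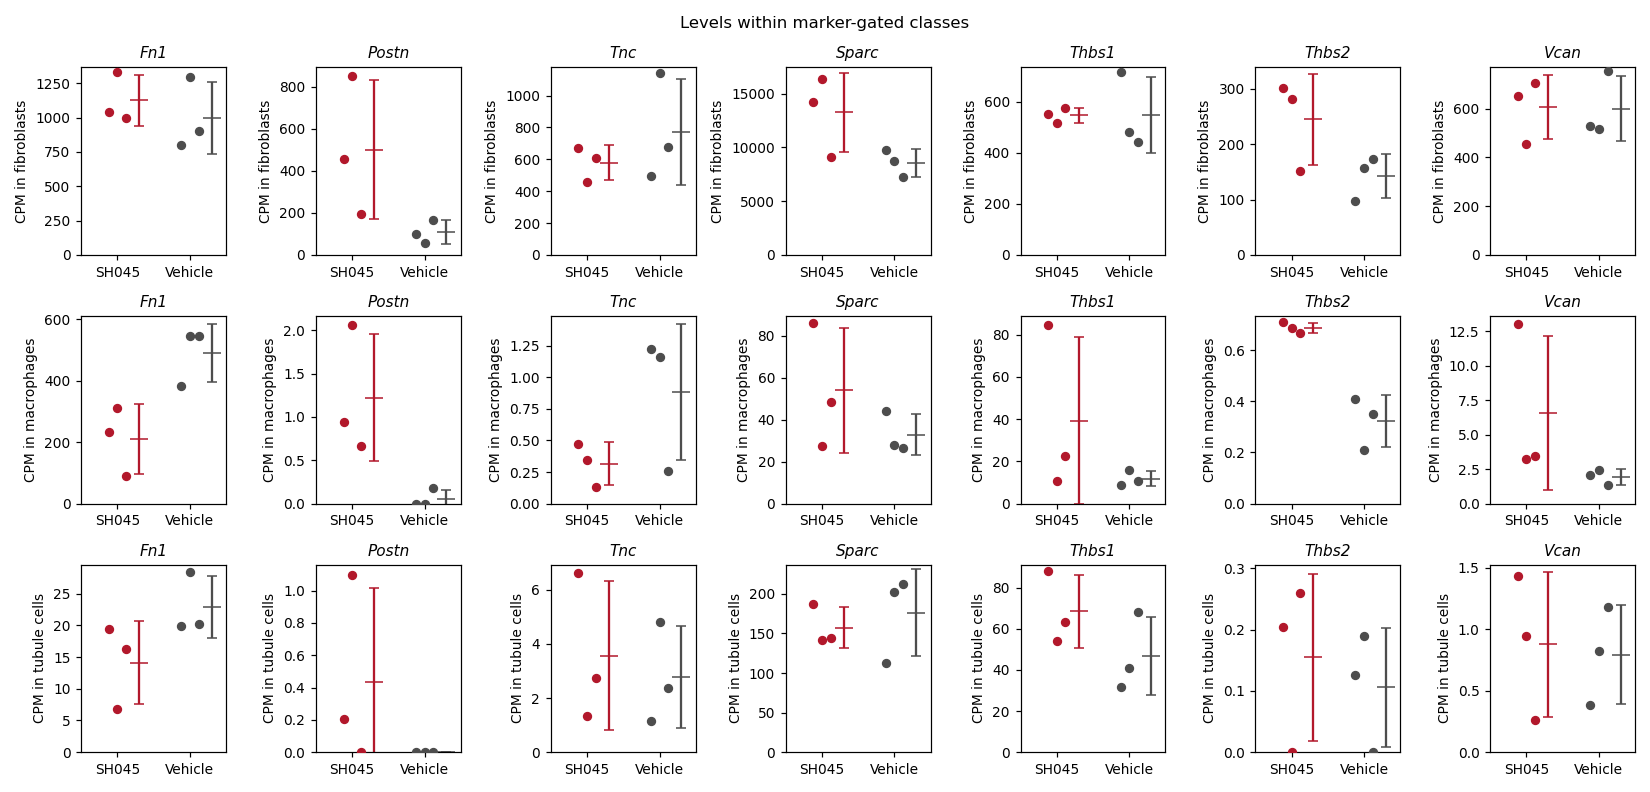
Level of each gene (columns) in CPM, on vertical axes that start at 0 and differ between panels, within fibroblasts, macrophages and tubule cells (rows) of each library, for SH045 and Vehicle; points are libraries and the bar beside them is the mean ± SD (n = 3). Fn1 is at 996 to 1334 CPM in SH045 and 799.6 to 1293 CPM in Vehicle fibroblasts, and at 88.3 to 312 CPM in SH045 and 382 to 546 CPM in Vehicle macrophages.

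The same comparison was made in 10 further classes with at least 20 cells per library, after the data had been seen. Of the members tested there, Fn1 in dendritic cells was called (log2 difference -3.33 ± 0.59, adjusted p = 0.0179 by edgeR), where 0.224% of all 6707 genes were called. The share of genes called was 0.318% in endothelial cells, 0.692% in T or NK cells, 1.85% in injured tubule cells, 0.247% in thick ascending limb cells, 3.15% in principal cells and 2.29% in intercalated cells, and 0% in monocytes or granulocytes, proximal tubule cells and distal convoluted tubule cells. The dendritic Fn1 values rested on 2, 3 and 0 UMIs in SH045 libraries, against 27, 28 and 24 in Vehicle libraries, and the call ended without SH045 library 3 (adjusted p = 0.0674) or Vehicle library 1 (0.0780). T or NK cells had 15, 1 and 2 Fn1 UMIs in SH045 libraries, against 5, 63 and 30 in Vehicle libraries.

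In endothelial cells, Sparc had 6152, 5719 and 6901 CPM in SH045 libraries, against 5654, 5164 and 7213 CPM in Vehicle libraries. The ranges overlapped and the log2 difference was 0.03 ± 0.16 (adjusted p = 0.955 by edgeR). Thbs2 in endothelial cells had 81.9, 81.7 and 73.5 CPM in SH045 libraries, against 70.7, 189 and 61.4 CPM in Vehicle libraries, also overlapping (-0.54 ± 0.35, adjusted p = 0.536). In injured tubule cells, Thbs1 had 141, 57.0 and 109 CPM in SH045 libraries, against 50.04, 45.6 and 63.2 CPM in Vehicle libraries. SH045 library 2 overlapped with Vehicle library 3, and the log2 difference was 0.84 ± 0.28 (adjusted p = 0.137 by edgeR, 0.0173 without SH045 library 2). In principal cells Thbs1 differed by -0.17 ± 0.19 (adjusted p = 0.665 by edgeR).

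Other matricellular and hyaluronan-binding matrix genes were examined as a list of 28 genes found in the files, of which 19 were tested in whole-library sums. Of these, 9 rose with SH045 and 0 fell, where 2.95% of all genes were called higher, with a median log2 difference of 1.55, against 0.01 over all genes. The 4 with the smallest p were Fstl1, a follistatin-like secreted protein (2.09 ± 0.22, adjusted p = 0.00720 by edgeR), Sparcl1, the closest relative of Sparc (1.34 ± 0.15, 0.00773), Wisp1, a CCN family protein (1.65 ± 0.25, 0.0188), and Smoc2, a SPARC-related calcium-binding protein (2.66 ± 0.40, 0.0190). Within fibroblasts 0 of 14 tested were called by edgeR, and 2 had an unadjusted p under 0.05 (Tgfbi and Fbln1, named after their values were seen), with a median of 0.41, where 0.125% of all genes were called. Within macrophages 1 of 7 was called, a share near the 11.4% of all genes: Spp1, osteopontin, had a log2 difference of -0.74 ± 0.15 (adjusted p = 0.0106 by edgeR) and so fell.

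Receptors of these proteins were examined as a list of 23 genes found in the files. Of 22 tested in whole-library sums, where 4.31% of all genes were called, 20 were not; Ddr2, a collagen receptor of mesenchymal cells, rose (1.74 ± 0.27, adjusted p = 0.0191 by edgeR) and Cd36, a scavenger and thrombospondin receptor, fell by 0.71 (SE 0.15, adjusted p = 0.0409). Within macrophages, where 11.4% of all genes were called in either direction, 5 of 20 rose and 0 fell, with a median of 0.23, against 0.02 over all genes. They were Stab1, a scavenger receptor that takes up SPARC (1.44 ± 0.15, adjusted p = 0.000442 by edgeR), Itga9, an integrin chain that binds tenascin-C (0.90 ± 0.12, 0.00309), Itga4, an integrin chain that binds fibronectin (0.58 ± 0.13, 0.0178), Tlr4, which senses bacterial lipopolysaccharide (0.70 ± 0.17, 0.0217), and Tlr2, which senses bacterial lipoproteins (0.59 ± 0.17, 0.0402). Stab1 is also 1 of the markers of the resident subset. Across all genes, the log2 difference in macrophages correlated with transcript length (Spearman's rho of 0.45). The values of these receptors with that trend removed are not given here. In fibroblasts 0 of 13 receptors were called by edgeR and 2 had an unadjusted p under 0.05 (Sdc4 and Egfr, named after their values were seen). In tubule cells 0 of 19 were called and 0 had an unadjusted p under 0.05.

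Genes with the most similar pattern were sought over 72 sums, 12 classes in each of 6 libraries, among 13002 genes, by Pearson's r of log2(CPM + 1). The sums share libraries and cells, so r is a description. For Fn1 the nearest were Ecm1 (r = 0.84), Rrbp1 (0.80) and Lrp1 (0.80). For Tnc they were Cdh11 (0.96), Lgi2 (0.94) and Loxl1 (0.92), and for Postn Srpx2, Mfap5 and Prelp (0.94 each). For Sparc they were Cald1, Dkk2 and Meis2 (0.93 each), and for Thbs2 Ecm2 (0.96), Sulf1 (0.95) and Sema3d (0.94). Thbs1 was nearest to Fndc3b (0.80), Ckap4 (0.79) and Nfic (0.79), and Vcan to Igfbp6 (0.82), Colec12 (0.80) and Lrp1 (0.79). Among the members themselves, r ran from 0.29 (Fn1 with Thbs1) to 0.82 (Sparc with Thbs2).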

How the data were processed

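Cells of 6 obstructed kidney libraries were profiled on Singleron GEXSCOPE beads, per the labels' protocols. The authors deposited raw UMI counts per gene and barcode, and the submitters' processing notes name build mm10; aligner and cell calling are not given in the sources used here. Per library, the lowest barcode total was 2166 to 3175 UMIs. The members, gene lists and tests were chosen with earlier results of these data known. UMIs of marker-gated cells were summed per library and tested with edgeR 4.0.16 (TMM, filterByExpr, robust quasi-likelihood; R 4.3.3), with Benjamini-Hochberg adjustment over all genes and a limit of 0.05. Alternatives were DESeq2 1.42.0 (test and size factors), no low-count filter, a replicate block, each library left out, a 20% mitochondrial limit, removal of the 5% highest Scrublet scores per library (1182 cells; doublets otherwise stayed), a gate with a lead of 2 markers, Leiden clusters (scanpy 1.11.5, resolution 1, 26 clusters; 94.4% of gated cells had the class of their cluster) and subtraction of a fitted transcript-length trend (Spearman's rho with the log2 difference of 0.43 in whole-library sums, across genes). The members were named throughout, with up to 4 called genes per list and comparison by smallest p and the 3 genes of most similar pattern; Tlr2 was added after its value was seen. The tests were also run on simulated data, with results not given here. For class pairs and differences of effects, only macrophages and tubule cells were simulated, not fibroblasts. Library totals give the depth. Since separate animals are not stated, p-values measure only the spread between these libraries, which may be technical.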

Additional observations from a re-analysis of the deposited data

How the results depend on the processing

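Counts of genes called by edgeR moved with the libraries used. In whole-library sums 713 genes were called, against 1968 with DESeq2, 1322 without the low-count filter, 55 without gated fibroblasts and 119 to 597 with 1 library left out. In macrophages 1407 were called, against 663 with the length trend removed and 224 to 1839 with 1 library left out. In fibroblasts 8 were called, against 40 with DESeq2, 185 without the filter, 31 with the replicate block, 3 with the length trend removed, 4 with doublets removed and 0 to 82 with 1 library left out. In tubule cells 1 was called, against 333 with DESeq2, 568 without the filter, 19 with Leiden clusters, 0 with the block, with doublets removed or with the stricter gate, and 0 to 63 with 1 library left out. The difference of the SH045 effect gave 55 calls between macrophages and fibroblasts (19 to 130 with 1 library left out), 5 between macrophages and tubule cells (2 to 60) and 25 between fibroblasts and tubule cells (4 to 142). Subsets gave 11 calls for infiltrating (5 to 63), 554 for resident (79 to 760; 265 with the block) and 398 for the remaining macrophages (5 to 746; 185 with the block). The cause was not tested.

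Replicate numbers were not used to pair the libraries in the main tests, and whether they do so was not settled. Same-numbered deviations correlated at 0.03, 0.09 and 0.26. SH045 library 1 correlated best with Vehicle library 2 (0.12), while SH045 libraries 2 and 3 correlated best with the Vehicle library of the same number. With the replicate block the whole-library adjusted p was 0.0817 for Postn, 0.0807 for Tnc and 0.0660 for Thbs1, and 0.0486 for Vcan in macrophages; whole-library calls were 676. Without the low-count filter the whole-library adjusted p was 0.0977 for Postn and 0.115 for Tnc, and with the length trend removed 0.0662 for Tnc and 0.0548 for Thbs1.

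Of the members' values under the alternatives, 617 kept direction and call, 34 lost the call, 35 gained it and 29 changed sign, the signs mostly of differences near 0. Fn1 in whole-library sums changed to 0.35 without gated macrophages. In macrophages Sparc was -0.0066 with doublets removed and -0.016 with the stricter gate. In fibroblasts the length correction gave -0.067 for Fn1, -0.16 for Thbs1 and -0.27 for Vcan, the stricter gate -0.038 for Thbs1 and doublet removal -0.027 for Vcan; in tubule cells the length correction gave -0.12 for Tnc. With 1 library left out, the log2 difference ranged in fibroblasts from -0.62 to 0.051 for Tnc, -0.053 to 0.28 for Thbs1 and -0.031 to 0.27 for Vcan, and in tubule cells from -0.65 to 0.90 for Tnc. It ranged from -0.67 to 0.14 for Sparc in macrophages minus fibroblasts, and in fibroblasts minus tubule cells from -0.76 to 0.25 for Tnc and -0.67 to 0.15 for Thbs1. It ranged from -0.011 to 0.32 for Fn1 in infiltrating macrophages, -0.26 to 0.45 for Sparc in resident ones, and -0.58 to 0.30 for Sparc and -0.27 to 1.74 for Thbs1 in the remaining ones. In endothelial cells it ranged from -0.057 to 0.17 for Sparc and -0.82 to 0.25 for Thbs2. Few fibroblasts in Vehicle libraries and few UMIs of Postn, Tnc, Thbs2 and Vcan outside fibroblasts limit the precision.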
